A study of Mus musculus with 6 samples.

Results

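Aspg, Asns, Phgdh, Psat1, Psph, Shmt1, Shmt2, Mthfd2, Got1 and Glul encode enzymes that break down or make asparagine, build serine, pass carbon units to folate, and supply the aspartate and glutamine that asparagine synthesis uses. These 10 genes were chosen by name from 22695 rows of the deposited count table, with the differences between GSNOR KO and WT in these same libraries already known, so their folds and p-values are a description of them and no independent evidence. The libraries were made from poly-A RNA of inguinal white adipose tissue, the subcutaneous fat of the groin, of mice aged 20 months on C57BL/6J. One group was 3 GSNOR KO samples, from mice without S-nitrosoglutathione reductase, the product of Adh5, and the other was 3 WT samples. The labels give no sex, do not describe the knockout allele further and do not state that each sample was a separate animal, so the spread behind the p-values may be technical.

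Serine is made from the glycolytic intermediate 3-phosphoglycerate in a short chain of reactions run by PHGDH, PSAT1 and PSPH. SHMT1 in the cytosol and SHMT2 in mitochondria then split serine into glycine and a carbon unit carried by folate, and MTHFD2 oxidises that unit inside mitochondria. Asparagine synthetase (ASNS) makes asparagine from aspartate and glutamine, and asparaginases cleave it back to aspartate. Fat cells use aspartate aminotransferase (GOT1) in shuttling reducing equivalents and carbon between cytosol and mitochondria, and they release glutamine made by glutamine synthetase (GLUL).

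Calls went in both directions. Aspg rose 5.41-fold in GSNOR KO fat and Psat1 fell 3.10-fold, and these were the 2 of 10 members called at an adjusted p under 0.05 by the edgeR quasi-likelihood test across all genes. Of 13694 genes tested, 7.04% were called, 3.90% as higher and 3.14% as lower in GSNOR KO. With library totals as the scaling, 314 genes were called higher and 406 lower, in place of 534 and 430. All 10 members passed the filter on low counts. For 8 members the groups did not overlap, 5 of them higher in GSNOR KO (Aspg, Asns, Glul, Psph, Shmt1) and 3 lower (Phgdh, Psat1, Got1), while 36.7% of all tested genes showed no overlap. The median log2 fold change of the members was 0.11, beside -0.04 for all tested genes.

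The libraries held 20277594 to 23961574 counts, of which transcripts of the mitochondrial genome took 28.8 to 37.8%. Levels are given as CPM, counts scaled to library size with TMM factors that correct for library composition. The targeted gene Adh5 had 4.0, 3.81 and 5.08 CPM in GSNOR KO replicates 1 to 3, against 76.9, 66.4 and 58.8 CPM in WT replicates 1 to 3. Markers of mature adipocytes summed to 17643 to 19481 CPM in GSNOR KO and 16618 to 19642 CPM in WT, with none of 12 at 0. Of these, 4 were higher and 1 lower in every GSNOR KO library, while 36.7% of all tested genes showed no overlap in either direction. Markers of skeletal muscle, led by Myh4, summed to 10759.6, 6994 and 10131 CPM in GSNOR KO replicates 1 to 3, against 41917, 16811 and 17372 CPM in WT replicates 1 to 3, and all 15 with a row were lower in every GSNOR KO library. Macrophage markers, led by Lyz2, summed to 125 to 167 CPM in GSNOR KO and 274 to 633 CPM in WT, with 8 of 10 lower in every GSNOR KO library. For adipose progenitors the sums were 486 to 566 CPM in GSNOR KO and 727 to 855 CPM in WT, with 7 of 10 lower in every GSNOR KO library. Endothelial markers summed to 2182 to 2675 CPM in GSNOR KO and 1185 to 2145 CPM in WT, with 4 of 8 higher in every GSNOR KO library. Lymphocyte markers summed to 9.56 to 15.8 CPM in GSNOR KO and 18.5 to 71.5 CPM in WT, with 3 of 11 lower in every GSNOR KO library. Mammary epithelial markers summed to at most 4.32 CPM in GSNOR KO and 1.14 CPM in WT, and Wap and Csn2 were at 0 in all libraries. WT replicate 1 stood apart, with the highest muscle and macrophage sums and the lowest endothelial sum. In such bulk tissue, fewer cells of a type and less RNA per cell cannot be told apart.

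The promoter windows of 4 members are shown because Asns and Got1 are those holding the letters of an amino acid response element, and Aspg and Psat1 are the genes called (of the windows of Psat1, the more upstream one). Each window runs from 250 bases before to 50 bases after the gene start, from RefSeq on GRCm38.p6, 5′ to 3′ on the gene's strand, with capitals marking TGATGNAA on either strand. They lie at chr6:7693160-7693459 for Asns, chr19:43524556-43524855 for Got1, chr12:112106433-112106732 for Aspg and chr19:15925010-15925309 for Psat1, all on the minus strand but for Aspg on the plus strand. The RefSeq starts can differ from the GENCODE positions given for each gene. The Psat1 window lies inside the GENCODE span of that gene, 15904678 to 15947337.
Asns: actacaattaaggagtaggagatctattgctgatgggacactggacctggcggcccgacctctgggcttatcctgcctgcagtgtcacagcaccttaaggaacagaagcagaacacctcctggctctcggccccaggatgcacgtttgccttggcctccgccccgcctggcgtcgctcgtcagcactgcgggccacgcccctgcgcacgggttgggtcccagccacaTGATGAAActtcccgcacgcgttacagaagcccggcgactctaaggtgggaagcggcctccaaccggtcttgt
Got1: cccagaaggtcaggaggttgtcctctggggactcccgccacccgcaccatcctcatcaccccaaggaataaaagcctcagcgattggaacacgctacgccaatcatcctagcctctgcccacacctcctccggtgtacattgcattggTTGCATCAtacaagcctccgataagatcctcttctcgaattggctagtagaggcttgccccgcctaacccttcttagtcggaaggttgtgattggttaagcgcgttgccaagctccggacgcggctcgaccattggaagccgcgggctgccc
Aspg: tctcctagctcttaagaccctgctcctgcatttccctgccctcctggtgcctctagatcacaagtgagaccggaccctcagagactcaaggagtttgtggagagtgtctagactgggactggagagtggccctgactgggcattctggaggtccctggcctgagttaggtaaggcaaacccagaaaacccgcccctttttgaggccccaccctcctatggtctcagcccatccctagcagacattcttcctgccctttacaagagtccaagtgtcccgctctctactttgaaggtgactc
Psat1: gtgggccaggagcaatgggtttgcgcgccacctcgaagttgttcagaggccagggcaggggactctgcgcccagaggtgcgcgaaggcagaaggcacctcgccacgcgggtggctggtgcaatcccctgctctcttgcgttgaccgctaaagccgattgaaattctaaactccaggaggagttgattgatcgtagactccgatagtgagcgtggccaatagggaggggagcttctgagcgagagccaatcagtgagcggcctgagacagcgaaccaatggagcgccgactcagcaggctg

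The letters TGATGNAA are those to which the transcription factor ATF4 binds with a C/EBP partner when amino acids run short, and such an element upstream of the asparagine synthetase gene is a textbook case in human cells. A match starts at position -23 from the RefSeq start of Asns (TGATGAAA) and another at -102 from that of Got1, on the opposite strand (TTGCATCA as printed). Of 11 windows of the 10 members 2 held it, and of 32851 windows of all genes 3.97% did. CACGTG, the E-box read by factors such as MYC, was in 0 of 11 member windows and 7.15% of all windows. TGACNNNGC, the core of the antioxidant response element, was in 4 of 11 (Asns, Aspg, Phgdh, Psph) and 12.4% of all. Both strands were searched and no match overlapped another. Asns and Got1, which hold the amino acid element, had log2 fold changes of 0.43 and -1.20, neither called (edgeR adjusted p = 0.0690 and 0.0804). Whether the element bears on either gene was not tested.

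**Figure D1:**
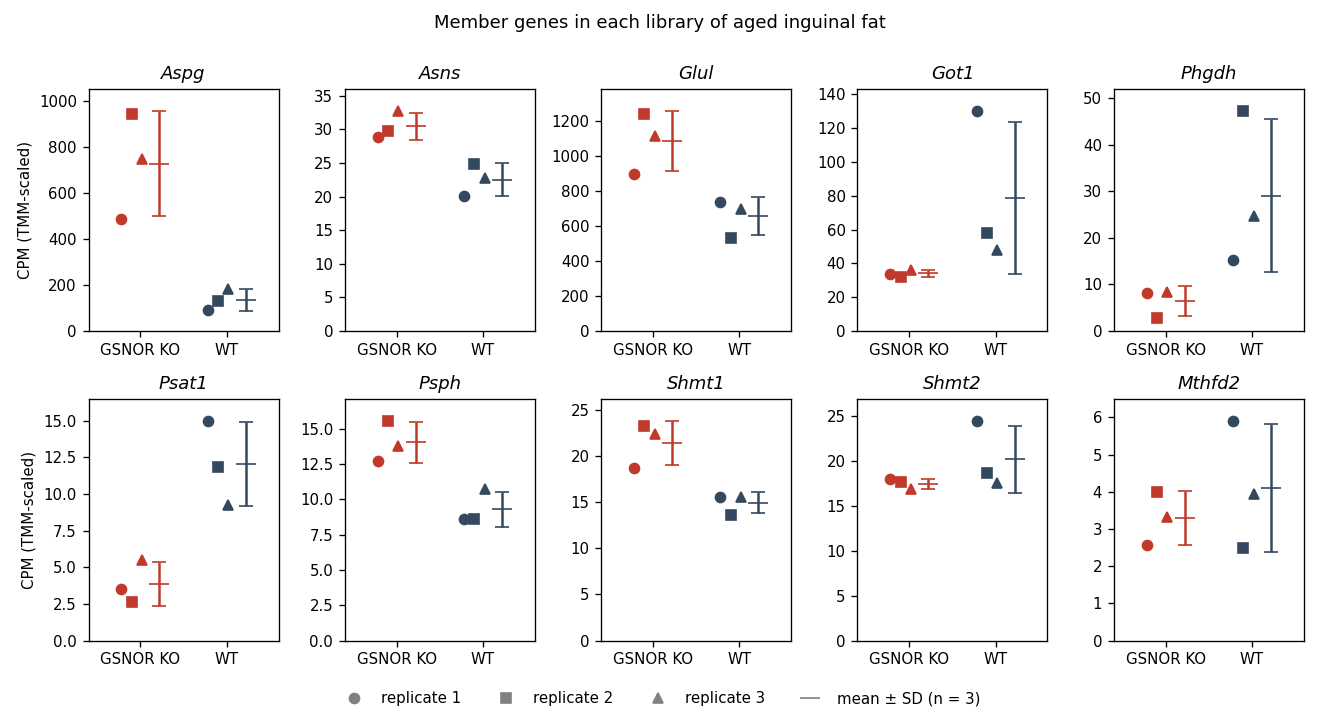
Levels of the 10 members in CPM (y axis, from 0 in each panel) in each GSNOR KO and WT library, with the mean ± SD of 3 libraries beside the points. Aspg lies at 489 to 944 CPM in GSNOR KO and 89.5 to 184 CPM in WT, while the groups overlap for Shmt2 and Mthfd2.

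Aspg showed the largest difference among the members. It encodes a protein with an asparaginase domain and ankyrin repeats, per the deposited domain annotation, while the deposited Swiss-Prot entry names it a platelet-activating factor acetylhydrolase, so its activity on asparagine is not the only one attached to it. Aspg (ENSMUSG00000037686, chromosome 12, 112106679 to 112127559, GRCm38) was at 489, 944 and 749 CPM in GSNOR KO replicates 1 to 3, against 89.5, 130.0 and 184 CPM in WT replicates 1 to 3. The lowest GSNOR KO library lay well above the highest WT library. The means were 727 ± 229 CPM in GSNOR KO and 134 ± 47.2 CPM in WT (SD, n = 3 each), and the fitted log2 difference was 2.44 (SE 0.331, edgeR adjusted p = 0.0189). In the authors' deposited table its log2 fold change was 2.46 with an adjusted p of 9.71e-05, and it is marked there as higher in GSNOR KO.

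Asns (ENSMUSG00000029752, chromosome 6, 7675169 to 7693254), which makes asparagine, had a smaller fold change of the same sign. It was at 28.9, 29.7 and 32.7 CPM in GSNOR KO replicates 1 to 3, against 20.0, 24.8 and 22.8 CPM in WT replicates 1 to 3. The groups did not overlap, with means of 30.5 ± 2.0 CPM in GSNOR KO and 22.5 ± 2.39 CPM in WT (SD, n = 3 each). The log2 fold change of 0.43 (SE 0.120) did not pass (edgeR adjusted p = 0.0690).

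Glul (ENSMUSG00000026473, chromosome 1, 153899944 to 153909723), which joins ammonia to glutamate to make glutamine, was the most abundant member. It was at 899, 1239 and 1115 CPM in GSNOR KO replicates 1 to 3, against 739, 532 and 698 CPM in WT replicates 1 to 3. All GSNOR KO libraries lay above all WT libraries, with means of 1084 ± 172 CPM in GSNOR KO and 656 ± 109 CPM in WT (SD, n = 3 each). Its log2 fold change was 0.72 (SE 0.178, edgeR adjusted p = 0.0541).

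Got1 (ENSMUSG00000025190, chromosome 19, 43499752 to 43524605), which interconverts aspartate and glutamate in the cytosol, lay the other way. It was at 33.9, 32.2 and 36.2 CPM in GSNOR KO replicates 1 to 3, against 130.1, 57.8 and 47.8 CPM in WT replicates 1 to 3. The GSNOR KO libraries sat close together below WT, and the WT spread came mainly from replicate 1, the library with the highest muscle and macrophage marker sums. The log2 fold change was -1.20 (SE 0.357, edgeR adjusted p = 0.0804), and -0.60 without WT replicate 1 (adjusted p = 0.00526, a fit in which 2844 genes were called). The part of muscle or macrophage RNA in this difference was not tested.

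The chain of serine synthesis was not uniform, with Phgdh and Psat1 at lower levels in GSNOR KO and Psph at a higher one. Phgdh (ENSMUSG00000053398, chromosome 3, 98313170 to 98339990), which encodes the dehydrogenase that opens the chain, was at 8.05, 2.69 and 8.41 CPM in GSNOR KO replicates 1 to 3, against 15.3, 47.2 and 24.8 CPM in WT replicates 1 to 3. The groups did not overlap but both were widely spread, with means of 6.38 ± 3.20 CPM in GSNOR KO and 29.1 ± 16.4 CPM in WT (SD, n = 3 each). Its log2 fold change of -2.19 was the second largest in size among the members and carried the largest error (SE 0.526, edgeR adjusted p = 0.0523). The gene lies on the same chromosome as Adh5, 40.1 Mb away.

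Psat1 (ENSMUSG00000024640, chromosome 19, 15904678 to 15947337), the aminotransferase of the middle step, fell. It was at 3.51, 2.60 and 5.53 CPM in GSNOR KO replicates 1 to 3, against 15.0, 11.9 and 9.29 CPM in WT replicates 1 to 3. The highest GSNOR KO library stayed below the lowest WT library, with means of 3.88 ± 1.5 CPM in GSNOR KO and 12 ± 2.87 CPM in WT (SD, n = 3 each). The log2 fold change was -1.63 (SE 0.309, edgeR adjusted p = 0.0317). In the authors' deposited table the log2 value of Psat1 was -1.62 with an adjusted p of 0.00266, and the gene was marked as lower, and that table marks none of the members other than Aspg and Psat1.

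Psph (ENSMUSG00000029446, chromosome 5, 129765558 to 129787449), the phosphatase that releases serine, was at 12.7, 15.6 and 13.8 CPM in GSNOR KO replicates 1 to 3, against 8.58, 8.59 and 10.8 CPM in WT replicates 1 to 3. Every GSNOR KO library lay above every WT library. The log2 fold change was 0.59 (SE 0.152, edgeR adjusted p = 0.0590). Psph overlaps Cct6a, on the opposite strand, by 452 bases, and Cct6a had up to 1745 counts in a library, so the 2 genes may share counts where strand was not used.

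Of the folate-linked enzymes, the groups were apart for the cytosolic one and overlapped for the mitochondrial ones, and none passed the test. Shmt1 (ENSMUSG00000020534, chromosome 11, 60788104 to 60811718) was at 18.7, 23.2 and 22.3 CPM in GSNOR KO replicates 1 to 3, against 15.6, 13.6 and 15.6 CPM in WT replicates 1 to 3. Its libraries did not overlap between groups, and the log2 fold change was 0.52 (SE 0.129, edgeR adjusted p = 0.0544). It shares 184 bases with Smcr8, on the opposite strand.

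Shmt2 (ENSMUSG00000025403, chromosome 10, 127517123 to 127522444) was at 17.9, 17.6 and 16.8 CPM in GSNOR KO replicates 1 to 3, against 24.4, 18.6 and 17.5 CPM in WT replicates 1 to 3. Only WT replicate 1 stood clear of the other libraries, and the log2 fold change was -0.21 (SE 0.148, edgeR adjusted p = 0.391), or -0.02 without it. Mthfd2 (ENSMUSG00000005667, chromosome 6, 83305691 to 83325908), the scarcest member, was at 2.56, 3.99 and 3.33 CPM in GSNOR KO replicates 1 to 3, against 5.91, 2.48 and 3.93 CPM in WT replicates 1 to 3. Here too WT replicate 1 was highest, and the sign of the log2 fold change, -0.32 (SE 0.350, edgeR adjusted p = 0.591), turned to 0.07 without that library. A difference of the size of the error is not shown to be absent for either gene.

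**Figure D2:**
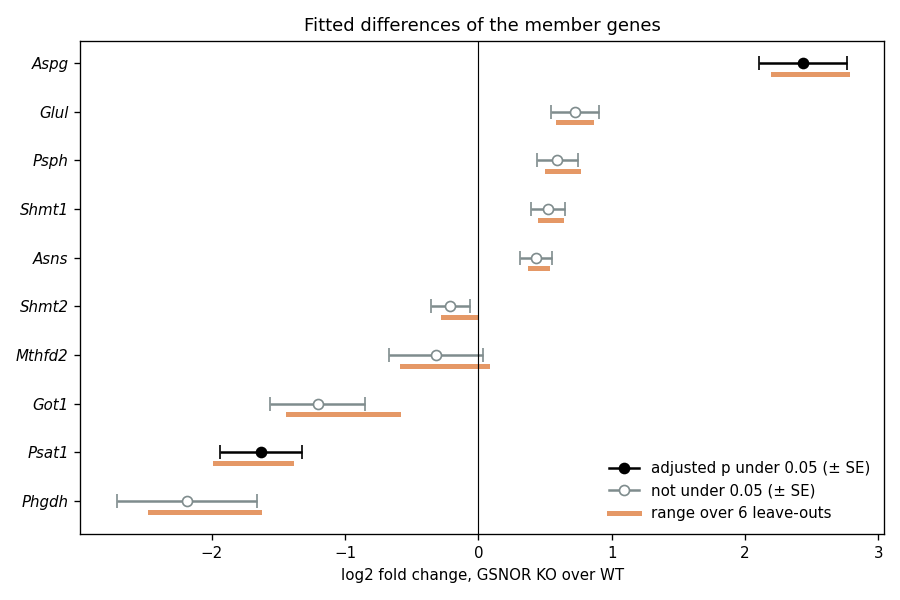
Log2 fold change of GSNOR KO over WT (x axis) for the 10 members, as fitted value ± SE, with an orange bar for the range of the value when each of the 6 libraries was left out in turn. Filled points mark Aspg and Psat1, and the bar of Mthfd2 crosses 0.

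The direction of every member but Mthfd2 held when any 1 library was left out, while the calls did not. Across the 6 fits with 1 library left out, the log2 fold change of Aspg ran between 2.21 and 2.76 and that of Psat1 between -1.97 and -1.41. Both calls held without WT replicate 1 or 3 and were lost without WT replicate 2 or any 1 of the 3 GSNOR KO libraries, with adjusted p up to 0.111 for Aspg and 0.136 for Psat1; in those fits 3 to 13 genes of the whole transcriptome were called. Without WT replicate 1 the calls numbered 7 of 10 members, adding Asns, Glul, Psph, Shmt1 and Got1, in a fit where 2844 genes were called. Psph and Got1 were also called without WT replicate 3. DESeq2 called 8 of 10 members, all but Shmt2 and Mthfd2, and 2344 genes in all.

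Per length, the members spanned a wide range. Levels between genes were compared as FPKM, the authors' values scaled for transcript length and depth. In GSNOR KO the order of mean FPKM was Glul (372), Aspg (195), Asns (42.9), Got1 (17.2), Psph (7.98), Shmt1 (6.43), Shmt2 (5.99), Phgdh (2.58), Psat1 (1.92) and Mthfd2 (1.57). In WT it was Glul (229), Got1 (40), Aspg (38.8), Asns (28.1), Phgdh (12), Shmt2 (7.54), Psat1 (5.77), Psph (5.72), Shmt1 (4.61) and Mthfd2 (1.90). Psph lay above Phgdh in all 3 GSNOR KO libraries and below it in all 3 WT libraries. The place of Got1 ahead of Aspg in the WT means rested on WT replicate 1, with 69.6 FPKM for Got1 and 27.7 FPKM for Aspg. In WT replicates 2 and 3 Aspg was the higher of them, at 34.8 and 53.9 FPKM against 26.7 and 23.7 FPKM for Got1, as it was in every GSNOR KO library. Neighbours whose libraries overlapped, and whose order is not settled, were Phgdh, Psat1 and Mthfd2 as well as Shmt1 and Shmt2 in GSNOR KO, and Got1, Aspg and Asns, then Phgdh, Shmt2, Psat1 and Psph, in WT. Shmt1 also overlapped Psat1 in WT, at 3.81 to 5.22 FPKM against 4.39 to 7.91 FPKM. The FPKM of Asns implies a length of 0.758 kb against 2.02 kb for its longest GENCODE transcript, so its place in the order is uncertain. Psph implied 1.69 kb against 2.88 kb, and Aspg 3.56 kb against 2.72 kb. The implied length was also above the longest transcript for Phgdh, Shmt1, Shmt2, Glul and Mthfd2. Orders and ratios between genes depend on these lengths.

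**Figure D3:**
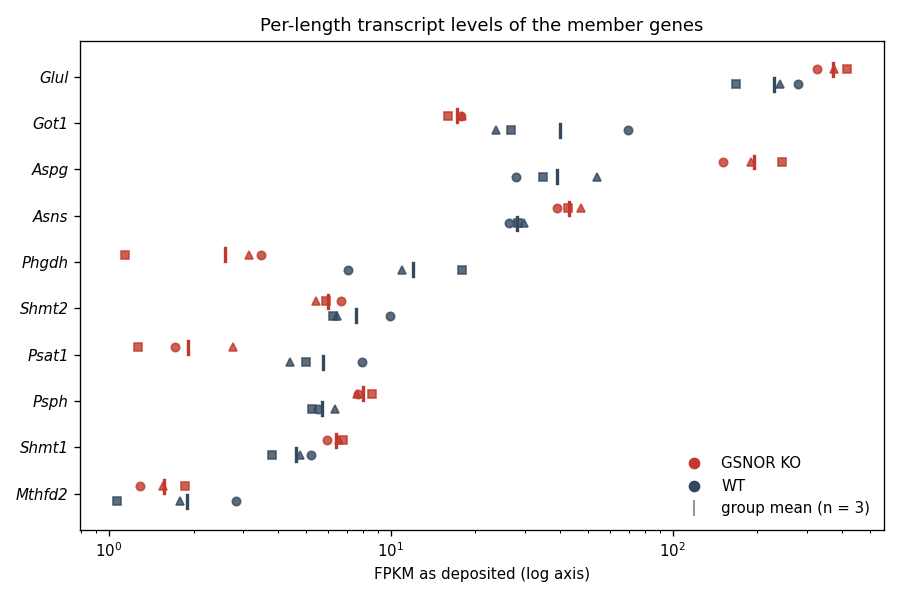
Deposited FPKM of each member (log x axis) in the GSNOR KO libraries (upper row of each gene) and the WT libraries (lower row), with circles, squares and triangles for replicates 1, 2 and 3 and a bar at each group mean. Glul is highest in every library, and Phgdh and Psat1 lie further left in GSNOR KO.

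Ratios of FPKM within a library do not depend on its depth. The lengths implied by counts and FPKM differed between libraries, so the ratios carry that difference too. The log2 fold change of Asns, for example, was 0.61 on the deposited FPKM and 0.43 on counts. The 5 ratios were taken after the members' values had been seen, so they carry no test. Each has on top a member that was higher in every GSNOR KO library. Each member below, except Asns, had a negative log2 fold change. The ratio of Shmt1 to Shmt2 FPKM was 0.893, 1.15 and 1.21 in GSNOR KO replicates 1 to 3, against 0.526, 0.610 and 0.743 in WT replicates 1 to 3. The cytosolic transcript thus stood at or near the level of the mitochondrial one in GSNOR KO and below it in every WT library. Aspg over Asns averaged 4.55 ± 1.04 in GSNOR KO and 1.37 ± 0.400 in WT (SD, n = 3 each). The short length implied for Asns bears on the size of these values. Psph over Phgdh was 2.21, 7.57 and 2.43 in GSNOR KO replicates 1 to 3, against 0.780, 0.294 and 0.576 in WT replicates 1 to 3. The end of the serine chain was above its opening step in all GSNOR KO libraries and below it in all WT libraries. Psph over Psat1 averaged 4.67 ± 2.02 in GSNOR KO and 1.07 ± 0.373 in WT, and Glul over Got1 averaged 21.7 ± 3.96 in GSNOR KO and 6.80 ± 3.09 in WT (SD, n = 3 each). No ratio overlapped between the groups, which follows largely from how the pairs were chosen.

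**Figure D4:**
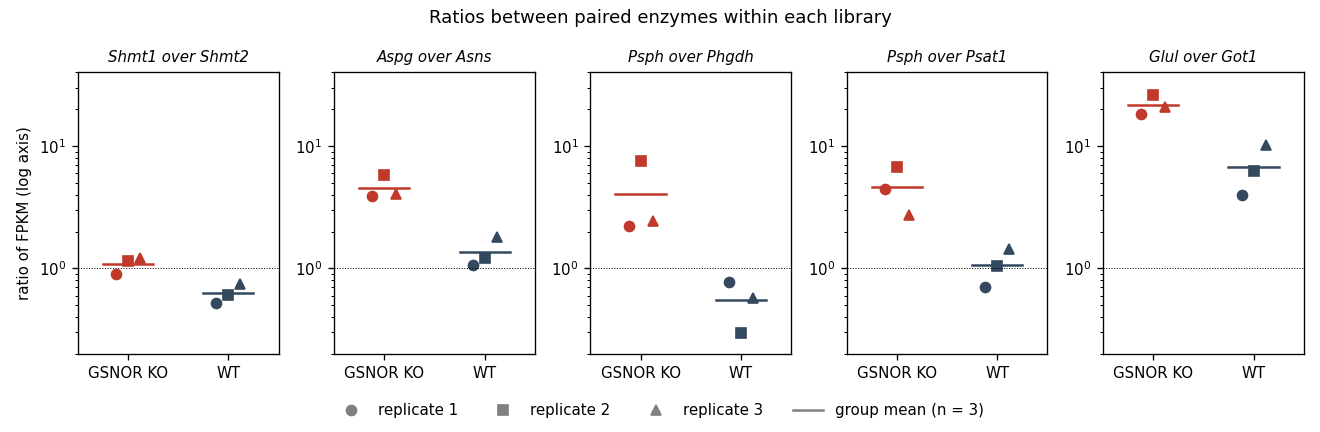
Ratio of the FPKM of 2 enzymes within each library (log y axis, dotted line at equal FPKM) in GSNOR KO and WT, with bars at the mean of 3 libraries. In each of the 5 panels the GSNOR KO libraries lie above the WT libraries. This follows largely from placing a member higher in GSNOR KO on top of each ratio.

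The members also differed in how much they varied within a group. In GSNOR KO the coefficient of variation was 50.2% for Phgdh, 38.6% for Psat1 and 31.4% for Aspg, and 3.21% for Shmt2. In WT it was 57.2% for Got1, 56.4% for Phgdh and 41.9% for Mthfd2, and 7.62% for Shmt1. The libraries did not share 1 order: GSNOR KO replicate 2 had the highest Aspg, Glul, Psph and Shmt1 and the lowest Phgdh and Psat1 of its group, while in WT Phgdh was highest in replicate 2 and Psat1 in replicate 1. GSNOR KO replicate 2 also had the lowest muscle, macrophage, lymphocyte and progenitor marker sums and the highest endothelial sum of its group. The part of tissue make-up in these orders was not tested.

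The rest of the pathways was read from 5 further gene lists that hold none of the members. In the counts of these lists, rose and fell mean called at an adjusted p under 0.05, as 7.04% of all tested genes were. In the list of serine and glycine metabolism 2 of 15 tested genes rose and 0 fell: Sdsl, a serine dehydratase-like enzyme, at 35.2 ± 2.01 CPM in GSNOR KO and 20.4 ± 2.27 CPM in WT, and Gcat, a mitochondrial enzyme of threonine breakdown, at 20.0 ± 1.85 CPM in GSNOR KO and 11.7 ± 1.96 CPM in WT (SD, n = 3 each). The list's median log2 fold change was 0.21, and at an unadjusted edgeR p under 0.05 5 genes were higher and 1 lower. Of all 13694 tested genes, 3912 were under that value. Of 15 tested genes of folate metabolism 2 were called higher and 0 lower, with a median of 0.07. At an unadjusted edgeR p under 0.05 2 of them were higher and 3 lower. Aldh1l1, a cytosolic formyl-folate dehydrogenase, was at 83.8 ± 2.81 CPM in GSNOR KO and 49.5 ± 8.26 CPM in WT, and Fpgs, which adds glutamate to folates and keeps them in cells, was at 13.7 ± 0.860 CPM in GSNOR KO and 9.13 ± 0.685 CPM in WT (SD, n = 3 each). In the methionine cycle and transsulfuration list 1 of 11 rose, Ahcyl1, a relative of the enzyme that splits S-adenosylhomocysteine, 1.54-fold, 0 fell, and the median was -0.20. With library totals as the scaling, 0 genes of the folate and methionine lists were called, at 2 and 1 genes with TMM.

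Genes around aspartate, glutamate and glutamine split in direction, as the members did. Of 25 tested, 3 rose and 2 fell, with a median log2 fold change of -0.23, and at an unadjusted p under 0.05 5 were higher and 10 lower. Among all 13694 tested genes, 3912 had an unadjusted edgeR p under 0.05. The split of calls leaned to lower in some other fits: DESeq2 called 4 higher and 6 lower, the fit with a replicate block 2 and 5, and the fit without WT replicate 1 3 and 5. Cad, which starts pyrimidine synthesis from glutamine and aspartate, was at 69.8 ± 5.43 CPM in GSNOR KO and 36.0 ± 4.94 CPM in WT (SD, n = 3 each, log2 fold change 0.95, edgeR adjusted p = 0.0189). Gpt and Gpt2, the cytosolic and mitochondrial alanine aminotransferases, moved oppositely. Gpt was at 64.5, 78.7 and 81.2 CPM in GSNOR KO replicates 1 to 3, against 45.9, 48.7 and 42.2 CPM in WT replicates 1 to 3, while Gpt2 was at 16.6, 10.3 and 14.9 CPM in GSNOR KO replicates 1 to 3, against 41.2, 32.6 and 25 CPM in WT replicates 1 to 3. Neither pair of groups overlapped, and the log2 fold changes were 0.71 and -1.24 (edgeR adjusted p = 0.0274 and 0.0321). Asl, the argininosuccinate lyase, rose 1.51-fold, and Oat, which converts ornithine, fell 1.80-fold and was highest in WT replicate 1 (128 CPM, against 93.2 and 76.4 CPM in WT replicates 2 and 3).

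In the list of Atf4 and genes that ATF4 is known to drive when amino acids run short, 1 of 27 tested genes was called. Sesn2, an inhibitor of mTORC1 signalling, rose 1.59-fold. Members such as Asns and Psat1 are left out of this list, so the count does not cover them. The list's median log2 fold change was 0.05, and at an unadjusted p under 0.05 4 genes were higher and 5 lower. Of all 13694 tested genes, 3912 were under that value. Atf4 itself, named after its values were seen, differed by -0.27 on the log2 scale without passing the test (edgeR adjusted p = 0.391). DESeq2 called 4 genes of this list higher and 3 lower, and limma voom called 0.

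**Figure D5:**
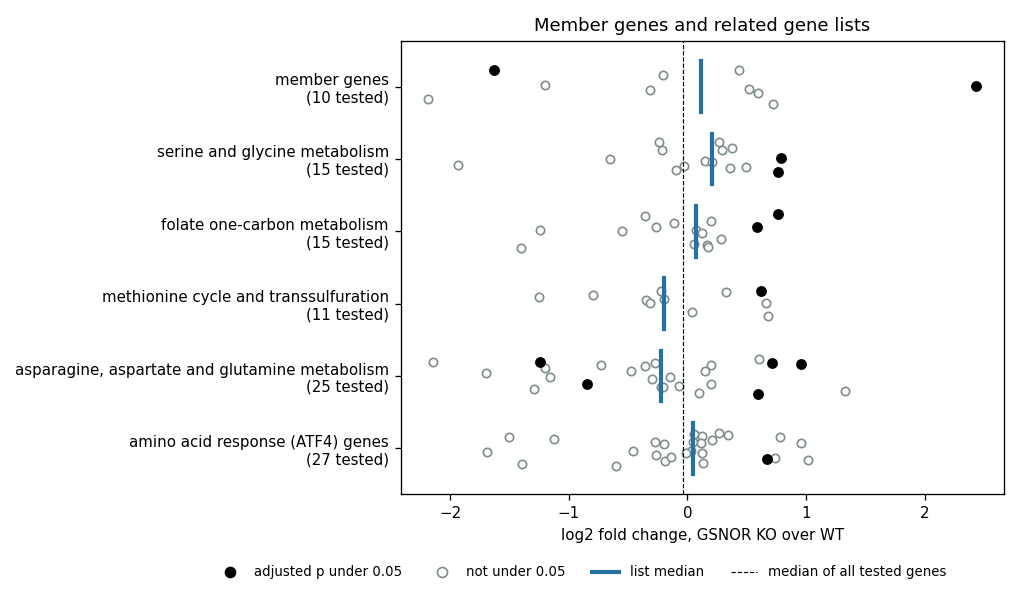
Log2 fold change of GSNOR KO over WT (x axis) for each tested gene of the members and of 5 related lists (rows), with filled points for genes with an adjusted p under 0.05, a blue bar at each list's median and a dashed line at the median of all tested genes. Called genes lie on both sides of 0 among the members and in the aspartate and glutamine list.

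The deposited KEGG annotation gave lists that were not assembled by hand, though they were taken up after the data had been seen. Of 32 tested genes of glycine, serine and threonine metabolism, which include 5 members, 4 rose (Gcat, Sdsl, Tha1 and Grhpr) and 1 fell (Psat1). Tha1, a threonine aldolase that yields glycine, was at 17.3 ± 0.945 CPM in GSNOR KO and 10.8 ± 0.482 CPM in WT, and Grhpr, a glyoxylate and hydroxypyruvate reductase, was at 78.9 ± 5.90 CPM in GSNOR KO and 52.0 ± 4.71 CPM in WT (SD, n = 3 each). Of 17 tested genes of the folate carbon pool Aldh1l1 was called higher and 0 lower. At an unadjusted edgeR p under 0.05 2 of the 17 were higher and 2 lower. Of 27 of alanine, aspartate and glutamate metabolism 3 rose (Cad, Gpt, Asl) and Gpt2 fell. KEGG placed Aspg in no pathway.

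The tested genes whose profile over the 6 libraries lay nearest to that of Aspg, the member with the smallest p, were Zpbp2, Ttc25, Lppr2, an unnamed gene model and Esrp2. Likeness was the root mean square distance between log2 CPM values centred over the 6 libraries, and it ran between 0.247 and 0.371. Lppr2 was at 36.1 to 63.2 CPM in GSNOR KO and 9.58 to 16.9 CPM in WT, while Zpbp2 was at 1.57 to 2.69 CPM in GSNOR KO and 0.306 to 0.503 CPM in WT.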

How the data were processed

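Poly-A RNA of inguinal fat from 3 GSNOR KO and 3 WT samples was sequenced by the submitters. The authors deposited whole-number counts per gene with no normalization and FPKM per library, per the file headers, and an adjusted p and log2 fold change of their own DESeq comparison. The build was GRCm38 (mm10), per the submitters' processing notes; the sources used here name no aligner, counter or strand setting. Depth was 20277594 to 23961574 counts per library.

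Genes were filtered with filterByExpr, scaled by TMM and tested with the edgeR 4.0.16 quasi-likelihood F test with robust dispersion (R 4.3.3), all 6 libraries in 1 fit, with Benjamini-Hochberg adjustment over 13694 genes and calls under 0.05. SE is the log2 fold change over the square root of F. Permuting 3 against 3 libraries exactly, two-sided, gives at least 0.10 and was not used. The fit was tested on simulated data with the same dispersion for every gene, which does not measure how reliable the calls are here. Coordinates are GENCODE M21 on GRCm38. Genes of the lists were found by symbol (190 entries) or identifier (2), and 6 had no row.

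The members and lists were chosen with earlier results of these data known. Named genes are all members, the called genes of each related list (at most 6), the 5 genes nearest to the leading member, the most abundant gene of a marker list and Adh5. Outside this rule, Atf4, marker genes at 0 and genes that overlap a member are named, chosen after their values were seen, as are the called genes of the KEGG lists. Alternatives were RLE factors, library totals, no filter, 1 CPM in 3 libraries, DESeq2 1.42.0, limma 3.58.1 voom, no robust dispersion, a replicate block, log2(FPKM + 0.1) in limma, and each library left out.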

Additional observations from a re-analysis of the deposited data

How the results depend on the processing

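Aspg kept its direction and its call in all 9 settings other than the leave-outs (adjusted p at most 0.0449), and Psat1 in 8 of 9, its adjusted p being 0.10 on the deposited FPKM; the cause was not tested. The other 8 members kept their direction in these settings. DESeq2 added calls for 6 members and the fit without robust dispersion for Phgdh. With DESeq2 the counts were 2344 genes, 8 members, 10 genes of the aspartate and glutamine list, 2 of the methionine list and 7 of the ATF4 list, in place of 964, 2, 5, 1 and 1. RLE factors gave 2 in the methionine and 2 in the ATF4 list. Library totals gave 1 in the serine list, 0 in the folate, 0 in the methionine and 2 in the ATF4 list. Without a filter the folate list had 1. The filter at 1 CPM and the fit without robust dispersion gave 2 in the methionine list, and limma voom gave 0 in the ATF4 list.

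Over the 6 leave-outs the calls ran between 3 and 2844 genes, 0 and 7 members, 0 and 4 in the serine list, 0 and 3 in the folate list, 0 and 3 in the methionine list, 0 and 8 in the aspartate and glutamine list and 0 and 8 in the ATF4 list. The members' median log2 fold change ran between 0.10 and 0.23. That of Mthfd2 ran between -0.58 and 0.068, the higher value without WT replicate 1, where its sign turned.

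The replicate block gave 884 genes and 2 members called, 7 in the aspartate and glutamine list, 1 in the folate list, 0 in the methionine list and 2 in the ATF4 list. Deviations from the group means of same-numbered libraries correlated at 0.158, 0.132 and -0.056 across genes for numbers 1 to 3, so the numbers were not taken as pairs, and not every library correlated best with its own number. The low counts of Mthfd2 (54 to 135 per library) and of Psat1 in GSNOR KO (58 to 123) limit the precision there.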
